A study of Oryza sativa with 16 samples.

Results

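Among the rice genes that the array annotation knows only by an NCBI locus number, 34 genes, measured by 36 probe sets, had a higher level in stressed than in unstressed seedlings of every variety studied. They were chosen on the measured values. The 57194 probe sets other than spiked-in controls were quantile-normalised over the 16 arrays, 16 was added, log2 was taken and the 2 arrays of a group were averaged. A probe set was kept when the stressed group lay at least 1 log2 unit above the control group of the same variety in each of the 4 varieties, and when the annotation gave it exactly 1 gene with no symbol or synonym other than a locus number. The array holds 14990 such genes on 18675 probe sets, of which the 36 are 0.193%, and 17905 genes on 22436 single-gene probe sets in all.

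The data are 16 Affymetrix rice arrays of RNA, leaf per the labels, from seedlings grown hydroponically for 2 weeks. There are 2 arrays (A and B) for each of 8 groups. Salt-stressed VSR156, a salt-sensitive variety, was set against unstressed VSR156, and salt-stressed CSR11, a salt-tolerant variety, against unstressed CSR11. Drought-stressed IR64, a drought-sensitive variety, was set against unstressed IR64, and drought-stressed Vandana, a drought-tolerant variety, against unstressed Vandana. Per the labels the salt was 50 mM NaCl for 24 h, and the drought was made by lifting seedlings out of the solution for 24 h. All groups share the hydroponic culture. The study's methods state another salt concentration and a shorter drought. Their passages differ from each other on tissue (leaf in one, pooled shoot in another) and plant age, and a figure legend of the study names whole plants. The tissue and the treatment are thus known only as far as the labels give them. Nothing states that arrays A and B came from separate plants, so that p-values measure only the spread between these arrays, which may be technical. In whole seedlings or leaves, a higher level in each cell and a larger share of the cells that express a gene cannot be told apart.

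Salt and drought both make water harder for a plant to hold, and part of the answer is shared. The hormone abscisic acid accumulates, its signal passes through protein phosphatases and kinases to transcription factors, and genes for protective proteins such as dehydrins and small heat shock proteins are transcribed. Salt adds a toxic load of sodium, so the stresses also differ. A locus number is a placeholder symbol that a gene keeps until someone names it, and no product or role is attached to these 34 genes in the sources used here, so none is given below.

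Several features of the arrays bear on every value below. Before normalisation the mean intensity was 36.2 and 22.9 on the VSR156 salt arrays, against 133 and 114 on the VSR156 control arrays. It was 94.8 and 9.16 on the CSR11 salt arrays, against 46.6 and 92.2 on the CSR11 control arrays. On the 8 arrays of the drought experiment it lay between 99.8 and 230. Rice GAPDH has control probe sets at either end of its transcript, and their log2 difference (3' minus 5'), which grows where RNA is degraded or incompletely copied, was 7.3 and 8 on the VSR156 salt arrays against 4.86 and 4.56 on their controls. It was 3.31 and 6.11 on the CSR11 salt arrays against 3.03 and 2.04 on their controls, and between 0 and 1.35 in the drought experiment. The VSR156 salt arrays and CSR11 salt array B thus differed from their controls in brightness and in this measure as well as in treatment. After quantile normalisation, log2 levels of replicate arrays correlated at r between 0.929 (CSR11 salt) and 0.993 over all probe sets. This is a description of arrays that may share their source.

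The variety names on the drought arrays also carry a doubt. Of the 206 probe sets that lay at least 3 log2 units apart between unstressed IR64 and unstressed Vandana, the arrays labelled IR64 drought were nearer to IR64 control at 61.7% and 59.2%, and the arrays labelled Vandana drought were nearer to IR64 control at 88.8% and 86.9%. The drought arrays of both labels thus resembled unstressed IR64 at most of these probe sets. Only LOC4351498 and LOC4349298 of the 34 genes are among the 206. Drought responses below are as labelled, and where the order of IR64 and Vandana is described, values with the control arrays of the 2 varieties exchanged are given as well.

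Beside leaf genes, the arrays of both experiments gave signal at genes that are not typical of leaf, and this signal varied more in the salt experiment. Levels here are normalised intensities summed over marker genes. The 6 measured leaf genes of 8 listed summed to 10800 to 11100 on VSR156 salt arrays against 10900 to 11600 on their controls, to 10100 to 10300 on CSR11 salt arrays against 12300 to 13500, to 10300 on IR64 drought arrays against 15600 to 15700, and to 9720 to 9770 on Vandana drought arrays against 16400 to 16500. Leaf genes thus gave signal in all groups, which cannot tell leaf RNA from shoot or whole-plant RNA. The 3 measured root transporters of 4 listed (LSI1, LSI2 and NRAMP5) summed to 1080 to 1170 in VSR156 salt against 198 to 199 in control, and to 912 to 1100 in CSR11 salt against 2110 to 2390 in control. They moved in opposite directions in the 2 salt varieties, and in the drought experiment stayed at 78.2 to 100 under drought against 156 to 197 in controls. The 3 measured seed protein genes of 6 listed (GLUA1, GLUA2 and RAG2) summed to 463 to 487 in VSR156 salt against 99.8 to 100 in control, to 433 to 844 in CSR11 salt against 94.8 to 164, to 142 in IR64 drought against 167 to 176, and to 148 to 163 in Vandana drought against 150 to 168. Genes of dividing cells, 4 of 4 measured, summed to 588 to 650 in VSR156 salt against 1310 to 1370, and to 954 to 1030 in CSR11 salt against 648 to 649. Under drought the same sum was 70.7 to 80.5 in IR64 against 134 to 138, and 53.8 to 86.7 in Vandana against 204 to 231. Of these lists only the seed list was higher under salt in both varieties, with RAG2, a seed allergen gene, up by 3.77 and 2.72 log2 units in VSR156 and CSR11. Of the seed storage protein genes, GLUA1 was at 0.28 in VSR156 (not called) and up by 1.72 in CSR11, and GLUA2 was at −0.79 and −1 (not called). The part of tissue makeup in the levels of the 34 genes was not tested.

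The responses, each a difference of group means in log2(normalised intensity + 16), are a description of how the genes were chosen and support nothing further. On this scale a fold change of a dim gene is understated. In VSR156 under salt they ran from 1 to 4.49 with a median of 1.86, where the median over all tested probe sets was 0.02. In CSR11 under salt they ran from 1.01 to 3.17 with a median of 1.41 (0.02 over all). In IR64 under drought they ran from 1.02 to 6.89 with a median of 1.88 (0.00 over all). In Vandana under drought they ran from 1.10 to 6.22 with a median of 2.68 (0.01 over all). For 24 of the 36 probe sets the largest response was that of Vandana, for 7 that of VSR156, for 4 that of IR64 and for 1 that of CSR11. The smallest response was that of CSR11 for 19, of IR64 for 11, of VSR156 for 6 and of Vandana for none. The places of VSR156 and CSR11 in these counts depend on normalisation, as given below. With the drought controls exchanged the drought order turned: the largest response was then that of the IR64 arrays for 24, of VSR156 for 7, of the Vandana arrays for 4 and of CSR11 for 1, and the smallest that of CSR11 for 17, of the Vandana arrays for 11, of VSR156 for 5 and of the IR64 arrays for 3.

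**Figure D1:**
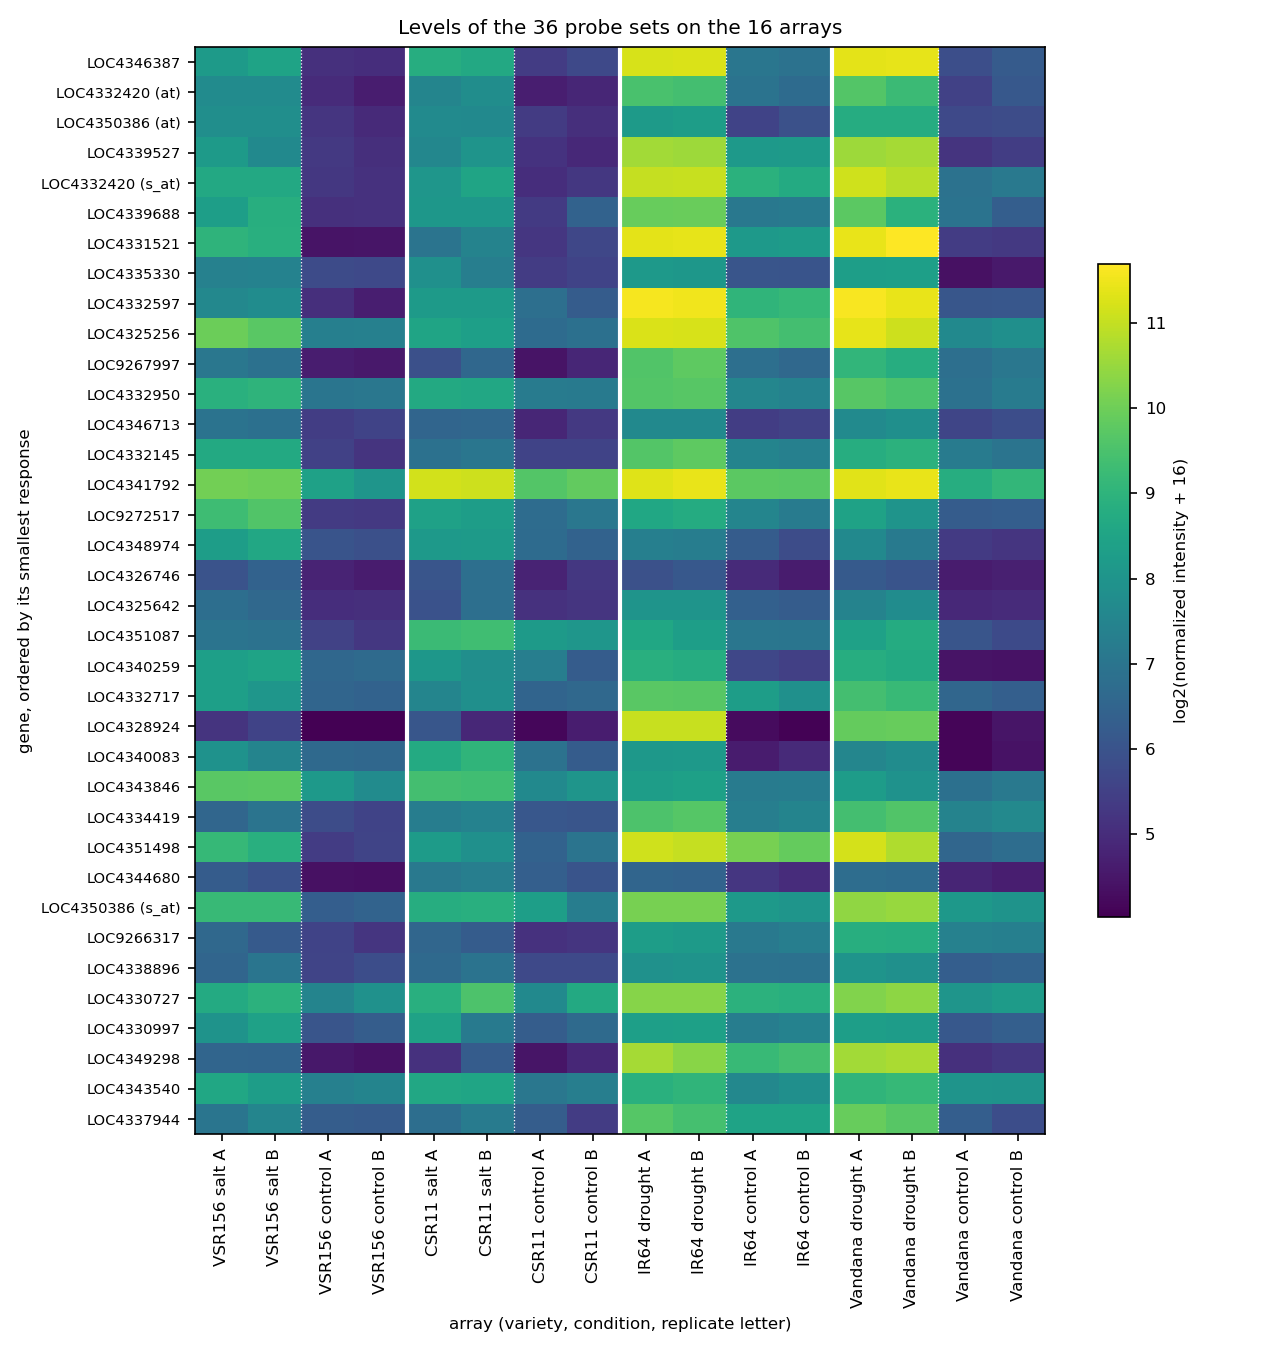
Levels of the 36 probe sets (rows, ordered by the smallest of their 4 responses) on the 16 arrays (columns, stressed arrays left of the controls of the same variety), in colour as log2(normalised intensity + 16). Both stressed arrays are brighter than both control arrays in every row and variety, and several rows that are bright in IR64 control are dark in Vandana control.

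LOC4346387 had the largest smallest response. Its log2 level was 8.20 and 8.48 in VSR156 salt against 5.09 and 5.04 in control, and 8.81 and 8.64 in CSR11 salt against 5.39 and 5.71 in control. It was 11.23 and 11.26 in IR64 drought against 7.05 and 6.91 in control, and 11.38 and 11.42 in Vandana drought against 5.86 and 6.22 in control. The responses were 3.27, 3.17, 4.26 and 5.35 in VSR156, CSR11, IR64 and Vandana, with a standard error of 0.15 each, and this was the only gene above 3 in all 4 varieties. Its level under drought was nearly the same in the 2 drought varieties, at around the top of the range of the 36 probe sets, whereas its salt-stressed level stayed more than 2 log2 units below that.

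LOC4332420 and LOC4350386 are the 2 genes with a pair of probe sets among the 36. On the _at probe set of LOC4332420 the level was 7.72 and 7.73 in VSR156 salt against 4.96 and 4.64, and 7.53 and 7.79 in CSR11 salt against 4.67 and 4.85. Under drought it was 9.5 and 9.40 in IR64 against 6.96 and 6.70, and 9.64 and 9.26 in Vandana against 5.52 and 6.15. The responses of this probe set, 2.93, 2.90, 2.62 and 3.61, lay within 1 log2 unit of each other, and those of its _s_at partner were 3.47, 3.14, 2.23 and 3.98. Both probe sets thus put the gene among the 5 highest by smallest response, although the Affymetrix suffix _s marks probes that can match more than 1 transcript.

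For LOC4350386 the _at probe set read 7.82 and 7.83 in VSR156 salt against 5.21 and 4.93, and 7.69 and 7.68 in CSR11 salt against 5.37 and 5.05. It read 8.21 and 8.29 in IR64 drought against 5.57 and 5.94, and 8.78 and 8.76 in Vandana drought against 5.73 and 5.82. Its responses of 2.75, 2.48, 2.49 and 2.99 were among the most even of all 36. The _s_at partner responded by 2.80, 1.03, 2.02 and 2.44, so that the probe sets differed in CSR11, where the partner read 8.80 and 8.87 under salt against 8.33 and 7.28 in control. The CSR11 control arrays of the partner lay over 1 log2 unit apart, and its smallest response was 1.56 without CSR11 control array A and 0.51 without array B.

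LOC4339527 responded by 2.75, 2.75, 2.41 and 5.31 in VSR156, CSR11, IR64 and Vandana. Its drought levels were 10.63 and 10.57 in IR64 against 8.16 and 8.21 in control, and 10.57 and 10.66 in Vandana against 5.19 and 5.42 in control. The stressed arrays of the 2 varieties did not separate, and the larger Vandana response came with a lower unstressed level. With controls exchanged the responses were 5.29 for the IR64 arrays and 2.43 for the Vandana arrays. In the salt experiment the level was 8.20 and 7.67 in VSR156 salt against 5.30 and 5.06, and 7.58 and 7.98 in CSR11 salt against 5.14 and 4.92.

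LOC4331521 showed the same arrangement on a wider scale. Under drought it read 11.38 and 11.42 in IR64 against 8.18 and 8.24, and 11.45 and 11.69 in Vandana against 5.39 and 5.30. Under salt it read 9.01 and 8.85 in VSR156 against 4.42 and 4.45, and 6.98 and 7.47 in CSR11 against 5.23 and 5.67. Its responses of 4.49, 1.78, 3.19 and 6.22 include the largest of VSR156 and the largest of Vandana. LOC4332597 read 11.59 and 11.52 in IR64 drought against 9.04 and 9.16, and 11.61 and 11.44 in Vandana drought against 6.09 and 6.11. It read 7.62 and 7.75 in VSR156 salt against 5.07 and 4.66, and 8.19 and 8.20 in CSR11 salt against 6.82 and 6.27, for responses of 2.82, 1.65, 2.46 and 5.42. With controls exchanged the IR64 and Vandana arrays gave 6.06 and 3.36 for LOC4331521 and 5.45 and 2.43 for LOC4332597. Both genes reached their highest levels in the drought arrays, where the varieties overlapped or nearly so.

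LOC4339688 was the gene of the leading 12 probe sets with the widest spread between replicates. It read 8.31 and 8.83 in VSR156 salt against 5.09 and 5.13, and 8.08 and 8.08 in CSR11 salt against 5.32 and 6.45. It read 9.91 and 9.93 in IR64 drought against 7.11 and 7.17, and 9.77 and 8.91 in Vandana drought against 6.95 and 6.32. Its responses of 3.46, 2.20, 2.78 and 2.70 each carried a standard error of 0.36, so that only their size relative to 0 is well measured and not their order.

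LOC4335330 had its smallest response, 1.68, in VSR156, with 2.11, 2.09 and 3.88 in CSR11, IR64 and Vandana. In Vandana it read 8.32 and 8.36 under drought against 4.36 and 4.56, whereas in IR64 it read 8.13 and 8.09 against 6.04 and 6.01. LOC4325256, one of the brighter genes, read 9.96 and 9.73 in VSR156 salt against 7.34 and 7.38, and 8.51 and 8.35 in CSR11 salt against 6.72 and 6.85. In drought it read 11.26 and 11.22 in IR64 against 9.58 and 9.41, and 11.42 and 11.11 in Vandana against 7.67 and 7.85, and its responses were 2.49, 1.65, 1.74 and 3.51. In both genes the drought levels were close and the unstressed levels were not. With controls exchanged the IR64 and Vandana arrays gave 3.65 and 2.31 for LOC4335330 and 3.48 and 1.77 for LOC4325256.

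LOC9267997 and LOC4332950 complete the leading 12 probe sets. LOC9267997 responded by 2.38, 1.61, 2.97 and 1.98, and read 9.60 and 9.78 in IR64 drought against 6.82 and 6.62, and 9.06 and 8.81 in Vandana drought against 6.84 and 7.07. It is one of 7 probe sets in which the IR64 response exceeded that of Vandana, and one of 4 in which it did so with controls exchanged too (2.73 and 2.22). LOC4332950 responded by 1.92, 1.45, 2.19 and 2.55, with levels of 8.90 and 9.02 in VSR156 salt against 7.01 and 7.06 and of 8.69 and 8.61 in CSR11 salt against 7.22 and 7.18. Its arrays A and B lay close together throughout, with a pooled SD of 0.10.

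**Figure D2:**
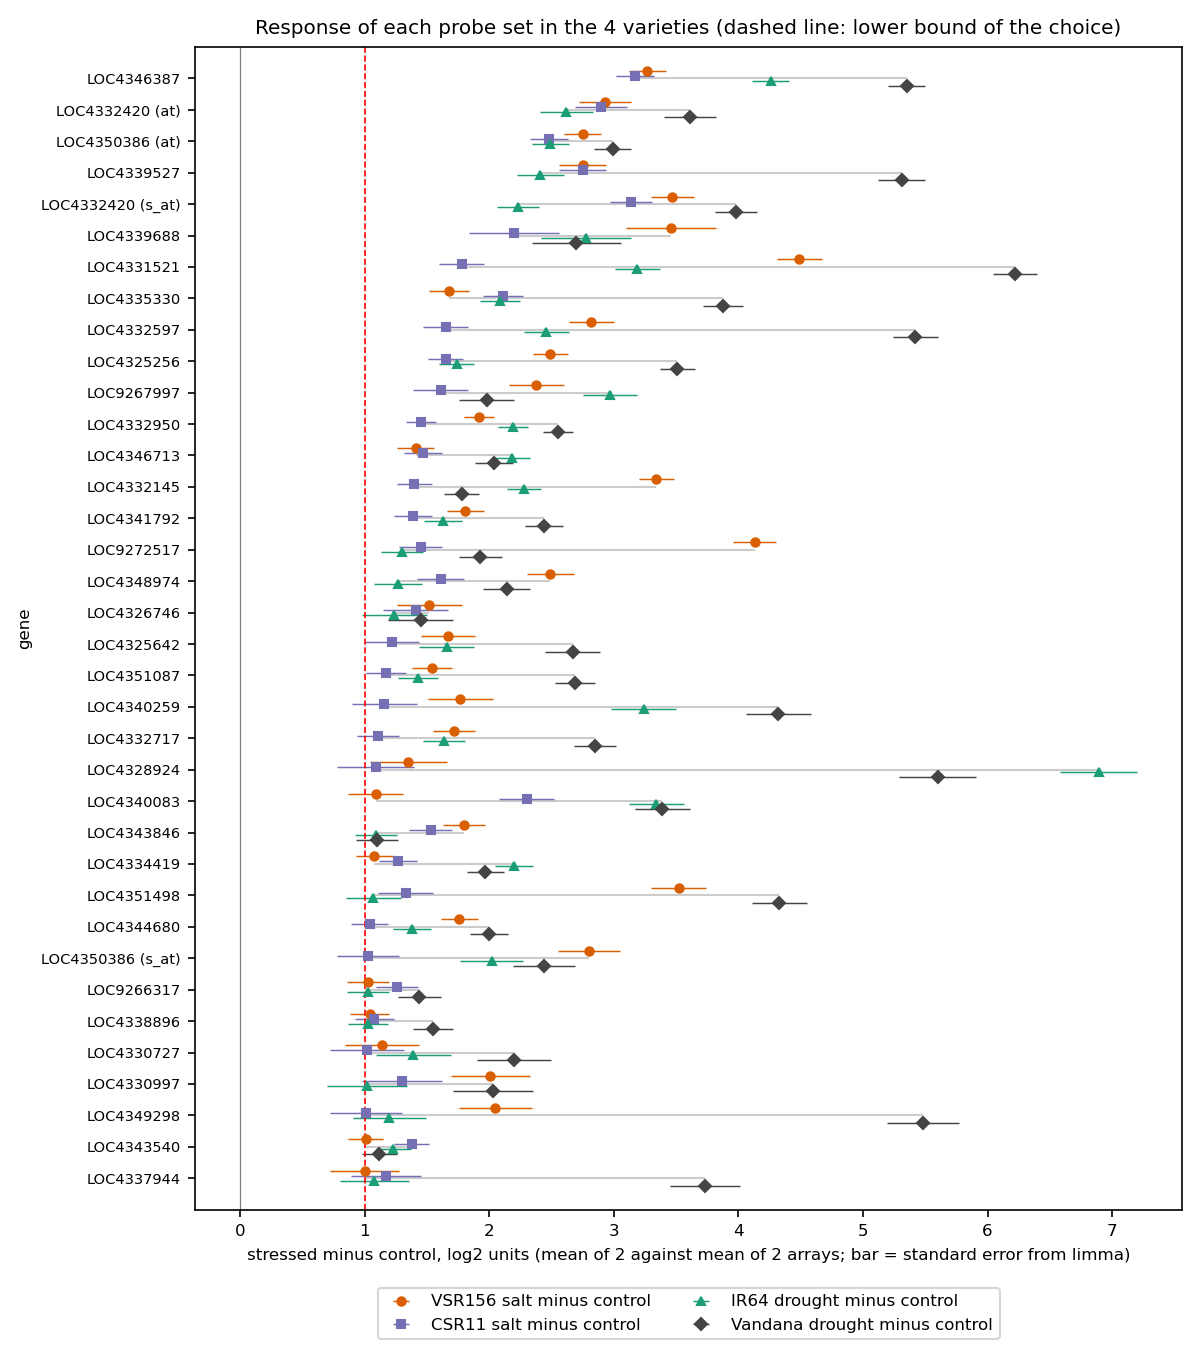
Response of each of the 36 probe sets in VSR156 and CSR11 (salt) and in IR64 and Vandana (drought), in log2 units, with standard errors from limma and 2 stressed and 2 control arrays per variety; the dashed line at 1 is the bound used to choose them. The Vandana response is the furthest right in 24 rows and the CSR11 response the furthest left in 19, with the drought arrays as labelled and all arrays quantile-normalised.

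Some genes answered one stress far more than the other. The mean drought response exceeded the mean salt response for 27 of 36 probe sets, by at least 1 log2 unit for 10, and fell below it by at least 1 for 1, with 25 within 1 of each other. The difference ran from −1.17 to 5.03 with a median of 0.52. Exchanging the drought controls leaves this mean as it is. As salt and drought were given to different varieties in separate experiments, stress, variety and experiment cannot be told apart in it. The counts and differences also hold only for quantile-normalised values. With values as deposited the median response was −0.03 in VSR156 and 0.30 in CSR11, against 2.18 in IR64 and 2.34 in Vandana.

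LOC4328924 was the most uneven. It read 5.19 and 5.57 in VSR156 salt against 4.04 and 4.03, and 6.09 and 4.89 in CSR11 salt against 4.15 and 4.64. Under drought it read 11.05 and 11.06 in IR64 against 4.24 and 4.08, and 9.89 and 9.91 in Vandana against 4.14 and 4.46. Unstressed levels were close to the value of 4 that the pseudocount gives at zero intensity in all varieties, and only under drought was the gene among the brighter of the 36. Its responses were 1.35, 1.09, 6.89 and 5.60.

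LOC9272517 was the gene in which salt exceeded drought by at least 1. It read 9.32 and 9.60 in VSR156 salt against 5.36 and 5.30, and 8.42 and 8.28 in CSR11 salt against 6.75 and 7.06. It read 8.59 and 8.73 in IR64 drought against 7.51 and 7.22, and 8.44 and 7.99 in Vandana drought against 6.25 and 6.32. Its response of 4.13 in VSR156 stood well above the 1.45, 1.30 and 1.93 of the others. With values as deposited its responses were 1.79, 0.20, 1.67 and 1.52 in VSR156, CSR11, IR64 and Vandana. The excess of salt over drought was then not kept. LOC4332145 was likewise raised most in VSR156, by 3.34 against 1.40 in CSR11, 2.28 in IR64 and 1.78 in Vandana. With values as deposited it gave 0.95, 0.27, 2.64 and 1.37, so VSR156 then lay below both drought varieties. LOC4351498 was raised most in VSR156 and Vandana, by 3.52 and 4.33 against 1.33 in CSR11 and 1.07 in IR64. With values as deposited it gave 1.12, 0.14, 1.18 and 3.83 in VSR156, CSR11, IR64 and Vandana. For LOC4351498, one of the 2 genes among the 206, exchanged controls gave 4.42 for the IR64 arrays and 0.97 for the Vandana arrays, which turns the drought order. LOC4340083, with 1.09, 2.30, 3.34 and 3.39, was the gene with the clearest larger response in CSR11 than in VSR156.

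Between the salt varieties the VSR156 response was the larger for 27 probe sets and the CSR11 response for 8, with differences from −1.20 to 2.72 (median 0.38) and 9 at least 1 apart. That order rested on quantile normalisation. With values as deposited the median response was −0.03 in VSR156 and 0.30 in CSR11, which turns it. With arrays centred on their median it was 0.52 and 0.45. Between the drought varieties the IR64 response was the larger for 7 and the Vandana response for 29, with differences from −4.29 to 1.29 (median −0.81) and 16 at least 1 apart. With controls exchanged the IR64 arrays gave the larger response for 30 and the Vandana arrays for 6, with a median difference of 1. These differences were not tested, since the choice of the genes used the responses. All 4 responses lay within 0.5 of each other for 3 probe sets and within 1 for 9.

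The bound of 1 did not fall in a gap. Just inside it were LOC4349298 (2.05, 1.01, 1.2 and 5.48 in VSR156, CSR11, IR64 and Vandana), LOC4343540 (1.01, 1.38, 1.23 and 1.12) and LOC4337944 (1, 1.17, 1.08 and 3.73). Just outside were LOC4329181 (1.45, 0.99, 1.69 and 1.62), LOC4324748 (1.14, 0.99, 1.17 and 2.03) and LOC4345287 (3.20, 0.98, 2.47 and 6.56), each kept out by CSR11. LOC4349298 was lost with 5 of the 16 arrays left out in turn, and its smallest response was 0.46 without CSR11 salt array B. A bound of 0.8 would have taken 82 probe sets, 0.9 would have taken 57, 1.5 would have taken 11 and 2 would have taken 6.

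As the spread of these responses, limma called all 36 probe sets up in VSR156, CSR11 and Vandana and 35 in IR64, where LOC4330997 had an adjusted p of 0.0616. Over all probe sets 3.33% were called up in VSR156, 2.37% in CSR11, 3.01% in IR64 and 5.25% in Vandana. Both stressed arrays lay above both control arrays for 36 of 36 in each variety, against 28.8% of all probe sets in VSR156, 23.4% in CSR11, 29.7% in IR64 and 30.4% in Vandana. The choice used these contrasts, so nothing is read from the counts. The gap between replicates was widest in the CSR11 groups, with a median difference of 0.26 between the salt arrays and 0.32 between the control arrays, and reached 1.27 for LOC4330997 between the CSR11 salt arrays.

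The salt side of the choice rested on normalisation. In the intensities as deposited, LOC4346387 read 81.6 and 60.2 in VSR156 salt against 31.1 and 24.4, and 401 and 23.7 in CSR11 salt against 15.3 and 43.1, where the 23.7 comes from the dimmest array. The same gene read 2820 and 3180 in IR64 drought against 116 and 125, and 2950 and 2630 in Vandana drought against 46.1 and 131. Without any normalisation the median response of the 36 probe sets was −0.03 in VSR156, where the median of all probe sets was −0.53, and 0.30 in CSR11, where it was −0.16. In the drought varieties it was 2.18 in IR64 (0.07 over all) and 2.34 in Vandana (−0.16 over all). Thus 18 of 36 were above 0 in VSR156 and 32 in CSR11, against 36 in IR64 and 36 in Vandana. Centring each array on its median gave 24 and 35 above 0 in VSR156 and CSR11, with medians of 0.52 and 0.45, and again 36 and 36 in the drought varieties. Of the 34 genes, 4 reached the bound in all varieties with centring (LOC4346387, LOC4332420, LOC4350386 and LOC4339527), and LOC4332420 alone with no normalisation, where its _s_at responses were 1.12, 1.5, 2.41 and 3.47.

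**Figure D3:**
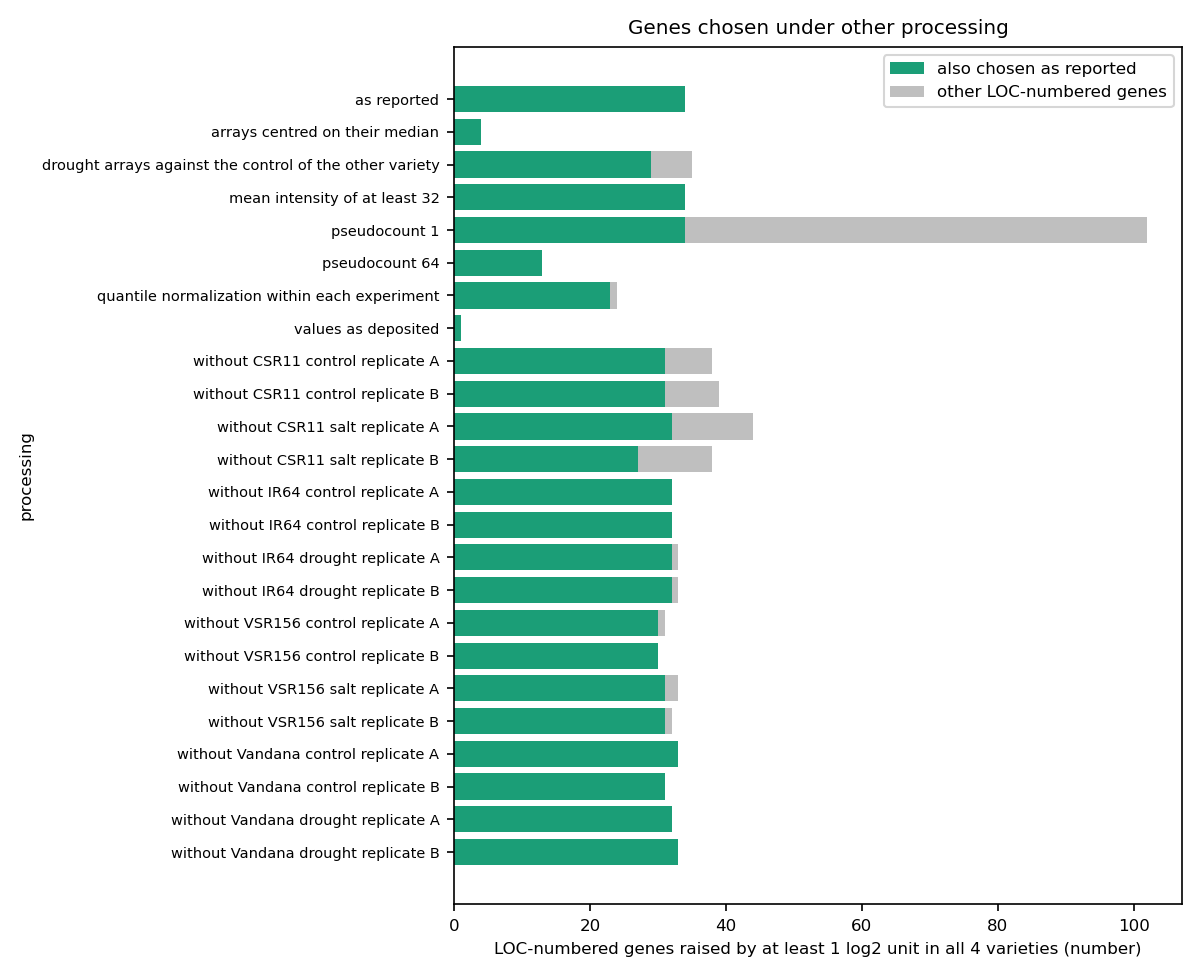
Number of LOC-numbered genes (horizontal axis) that met the bound in all 4 varieties under each way of processing (rows), split into genes also chosen as reported and other genes. The number was 34 as reported, 4 with arrays centred on their median, 1 with values as deposited, 102 with a pseudocount of 1 and between 30 and 44 with any 1 array left out.

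Replicate arrays of CSR11 salt were used for the choice together, and their values after quantile normalisation are a description only. Array A alone gave 28 of 36 probe sets at 1 or more (median 1.47), and the dim array B alone gave 34 (median 1.49). Leaving out array B kept 27 of the 34 genes and added 11 others.

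Contrasts between varieties set no bound in the choice, and these were tested, but the choice used every group mean in them. An unstressed difference equals the stressed difference minus the difference between the responses. None of these contrasts, salt or drought, is thus independent of the choice, and their counts and p-values describe these arrays only. Unstressed seedlings of the drought varieties differed most. Of the 36 probe sets, 14 (of 14 genes) were called higher in unstressed IR64 than in unstressed Vandana and none lower, against 2.61% of all probe sets called higher and 2.14% called lower, and against 4.1% and 3.82% of those of LOC-numbered genes. None was lower at an unadjusted limma p under 0.05 either, nor by the methods' t-test. Higher at that level were 25 by limma and 13 by the t-test. The share of all probe sets at that unadjusted level was not counted, so nothing is read from these counts. The median difference was 0.79, from −0.25 to 4.11, and 29 of 36, or 80.6%, were above 0, against 49.1% of all tested. A probe set with a low control level reaches the bound more easily, so the choice and this contrast are not independent.

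The largest of these differences was at LOC4349298, which read 9.19 and 9.41 in unstressed IR64 against 5.10 and 5.27 in unstressed Vandana, a difference of 4.11 ± 0.29 (SE, 2 arrays each, limma adjusted p = 3.91e-06). LOC4351498 read 10.13 and 9.89 against 6.56 and 6.76, a difference of 3.35 ± 0.22 (adjusted p = 1.86e-06). LOC4332597 differed by 3 ± 0.18 (adjusted p = 9.56e-07), LOC4339527 by 2.88 ± 0.19 (2.05e-06), LOC4331521 by 2.86 ± 0.18 (1.39e-06) and LOC4337944 by 2.40 ± 0.28 (2.18e-04). In these 6 genes no unstressed IR64 array came within 2 log2 units of an unstressed Vandana array. The other 8 genes called were LOC4332420 on its _s_at probe set, LOC4325256, LOC4332717, LOC4335330, LOC4325642, LOC4340259, LOC4351087 and LOC9272517, with differences between 1.08 and 1.78. With values as deposited 1 of the 14 was still called, and with centring 7, and all 14 kept their sign in both.

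Under drought the same genes did not separate the arrays labelled IR64 from those labelled Vandana. No probe set was called between IR64 drought and Vandana drought, against 0.511% of all called higher and 0.0612% called lower. At an unadjusted limma p under 0.05, 5 were higher and 2 lower, and by the methods' t-test 3 and 5, of which 1 reached 1 log2 unit. Here too the share of all probe sets at the unadjusted level was not counted. The differences ran from −0.56 to 1.15 with a median of −0.01, and among the 14 genes called between unstressed varieties from −0.25 to 0.45. The widest, LOC4328924, was 1.15 ± 0.31 (adjusted p = 0.189). As few probe sets of any kind were called between the drought arrays, the closeness is not particular to these genes. The doubt over the labels bears on this contrast. The arrays labelled Vandana drought were nearer to IR64 control at 88.8% and 86.9% of the 206 probe sets. Whether the 2 drought groups come from different varieties was not tested, so no approach of the varieties under drought is read from these values.

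**Figure D4:**
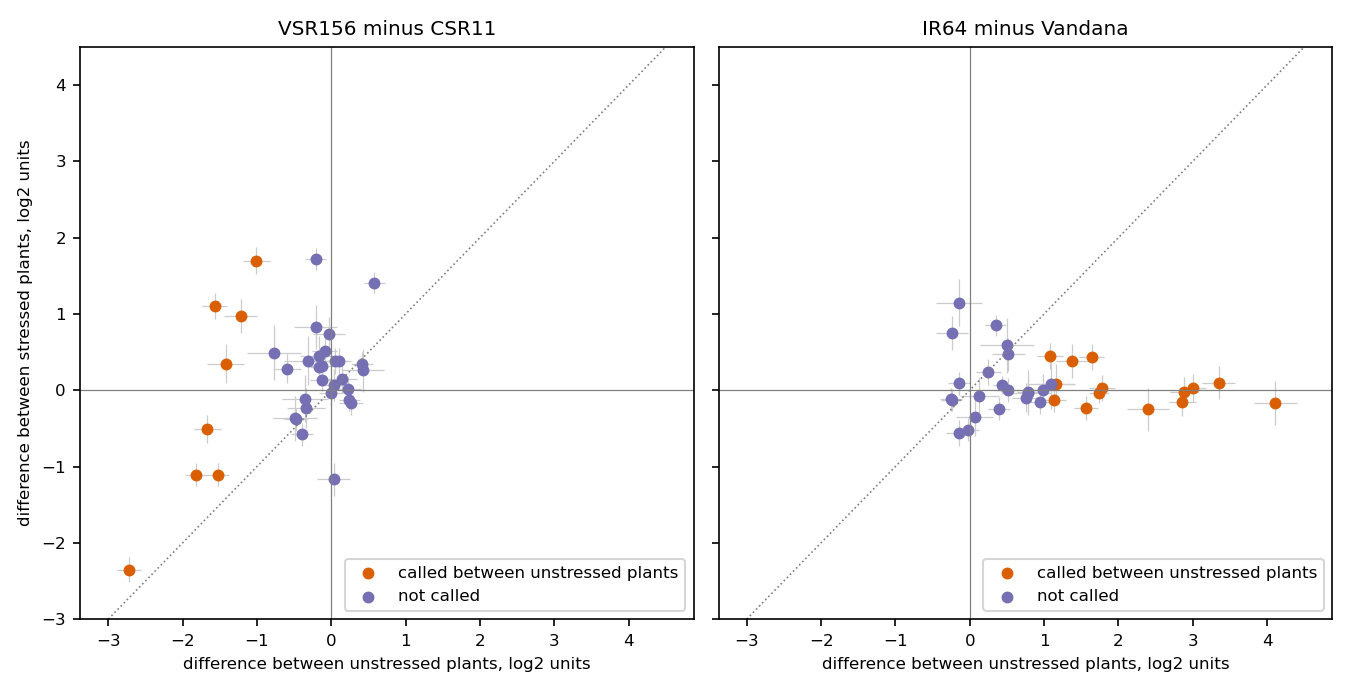
Difference between varieties under stress (vertical axis) against the difference between unstressed seedlings (horizontal axis), in log2 units with standard errors from limma, for the 36 probe sets, with VSR156 minus CSR11 on the left and IR64 minus Vandana on the right; colour marks those called between unstressed varieties and the dotted line marks equal differences. On the right, with the drought arrays as labelled, the 14 called probe sets spread from 1.08 to 4.11 along the horizontal axis. They stay between −0.25 and 0.45 on the vertical axis.

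With the controls exchanged, the 2 drought responses of a probe set have the same sum as labelled, so the counts that follow are largely fixed by the choice and do not settle the doubt over the labels. IR64 drought minus Vandana control was at least 1 for 34 of 36 probe sets (0.88 to 6.75, median 2.68), and Vandana drought minus IR64 control for 32 (0.85 to 5.74, median 1.71), with 30 in both. Every probe set stayed above 0 in either comparison. The order of the 2 responses turned for 29 of 36. LOC4349298 gave 5.31 for IR64 drought and 1.37 for Vandana drought with exchanged controls, against 1.2 and 5.48 as labelled. The order held for the other 7: the IR64 arrays were the higher either way for LOC4328924 (6.75 and 5.74 exchanged, 6.89 and 5.60 as labelled), LOC9267997, LOC4332145 and LOC4339688, and the Vandana arrays for LOC9266317 and both probe sets of LOC4350386. With exchanged controls the choice would have given 35 genes, 29 of them among the 34, and the genes lost were LOC9272517, LOC4343846, LOC4351498, LOC9266317 and LOC4343540.

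**Figure D5:**
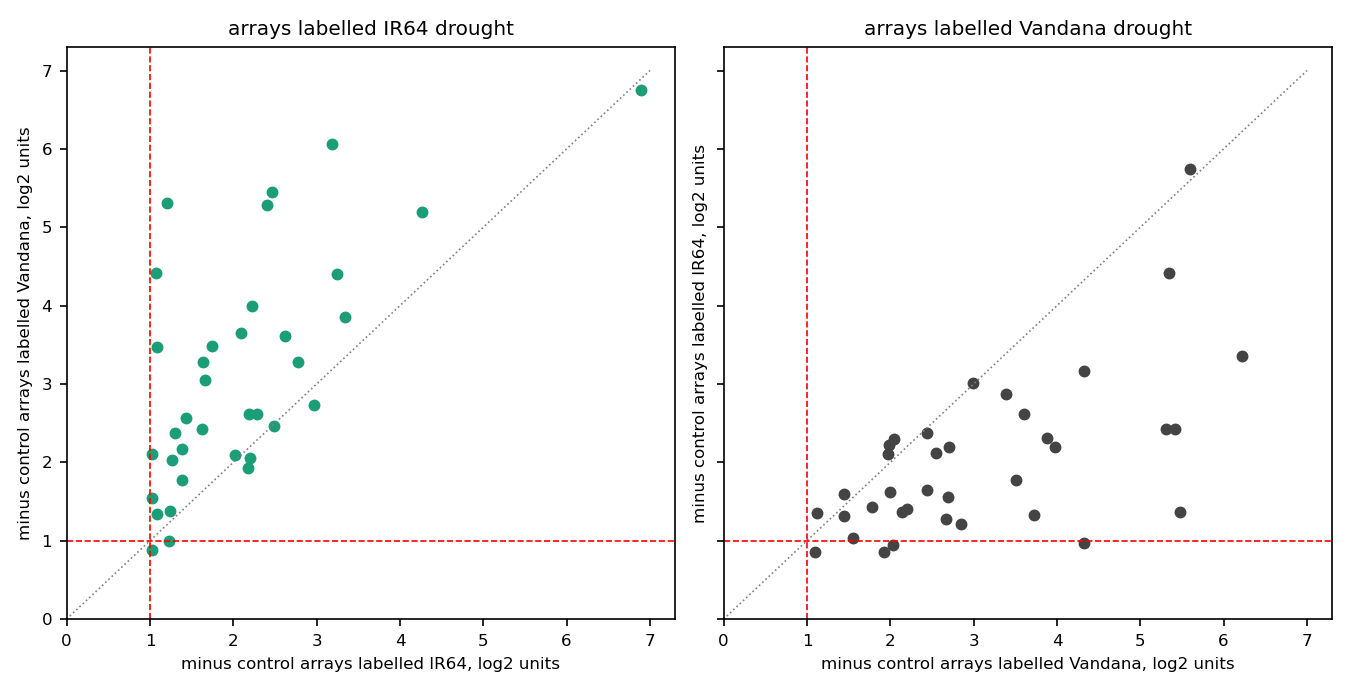
Each of the 36 probe sets with the drought arrays labelled IR64 (left) and Vandana (right), as the difference from the control of the same label (horizontal axis) and of the other label (vertical axis), in log2 units; dashed lines mark 1 and the dotted line equality. With the other control, 34 on the left and 32 on the right still reach 1, and most points lie above the dotted line on the left and below it on the right.

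In the salt varieties, 8 probe sets were called lower in unstressed VSR156 than in unstressed CSR11 and none higher, against 2.83% of all probe sets called lower and 2.11% called higher (4.49% and 3.66% among LOC-numbered genes). At an unadjusted limma p under 0.05, 2 were higher and 11 lower, and by the methods' t-test 1 and 4. For these unadjusted counts no share of all probe sets was counted. The median difference was −0.18, from −2.72 to 0.58. As with the drought varieties, this contrast is not independent of the choice. LOC4351087 differed most, with 5.54 and 5.27 in unstressed VSR156 against 8.21 and 8.04 in unstressed CSR11, a difference of −2.72 ± 0.16 (SE, limma adjusted p = 7.68e-07). LOC4344680 differed by −1.82 ± 0.15 (1.37e-05), LOC4332597 by −1.67 ± 0.18 (9.50e-05), LOC9272517 by −1.57 ± 0.17 (1.35e-04), LOC4341792 by −1.53 ± 0.15 (4.68e-05) and LOC4350386 on its _s_at probe set by −1.42 ± 0.25 (0.00304). LOC4351498 and LOC4331521 were the other genes called. None of the 8 was called with arrays centred or as deposited, although all kept their sign, and the median of the 36 was then 0.10 and 0.37, so that the direction of the set as a whole depends on scaling.

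Under salt 4 probe sets were higher in VSR156 than in CSR11 and 4 were lower, against 2.67% and 2.06% of all. Higher in salt-stressed VSR156 were LOC4332145, by 1.72 ± 0.14 (adjusted p = 1.6e-05), LOC4331521, by 1.70 ± 0.18, LOC4325256, by 1.41 ± 0.14, and LOC9272517, by 1.11 ± 0.17. LOC4331521 and LOC9272517 thus lay below CSR11 without stress and above it under salt. Lower were LOC4351087, which read 6.97 and 6.92 in VSR156 salt against 9.26 and 9.33 in CSR11 salt (difference −2.35 ± 0.16), LOC4340083 (−1.17 ± 0.22), LOC4341792 (−1.11 ± 0.15) and LOC4344680 (−1.11 ± 0.15). For LOC4351087, LOC4341792 and LOC4344680 CSR11 was thus the higher with and without salt. None of these 8 calls was made with centring or with values as deposited. The salt-stressed levels also entered the choice, so this contrast is not independent of it either.

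Other probe sets of the same genes were less even. The array has 15 for 9 of the 34 genes, and 10 were above 0 in all 4 varieties, 4 reached 1 in 3 varieties and none did in all 4. Of these 15, 6 had a mean normalised intensity under 20, where little can be measured. Of the 9 brighter ones, 7 were above 0 in all varieties, and 4 reached 1 in VSR156, 3 in CSR11, 5 in IR64 and 7 in Vandana. The second probe set of LOC4351498 responded by 3.97, 1.22, 0.47 and 2.87. The brighter _s_at probe set of LOC4343846 responded by only 0.55, 0.27, 0.29 and 0.73, where the chosen one had responded by at least 1 in each variety. The other probe set of LOC4349298 moved by −1, −0.17, 1.08 and 0.87, and the dim one of LOC4339527 by −0.20, −0.14, −0.50 and −0.45, so for these genes the probe sets disagree. LOC9267997, one of the leading genes, has 3 others, and none reached 1 in both salt varieties. They responded by 0.17, 1.48, 2.88 and 1.58 (mean intensity 634), by 1.46, −0.24, 3.61 and 1.5 (mean intensity 250), and by 0.58, 0.13, 2.27 and 1.64 (mean intensity 38), where the chosen one had a mean intensity of 209. Its drought response was thus shared by its probe sets, and its salt response was not. By construction a chosen probe set has a larger smallest response than those of its gene that were not chosen. Single responses can go the other way, as in VSR156 for LOC4351498 (3.97 for the second probe set, 3.52 for the chosen one).

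The genes were not clustered along the chromosomes. All 34 were placed in the RefSeq gene order, and the nearest members were 91 genes apart. Of the 68 genes directly beside them 31 were measured and none was a member. Among those 31, 2 were called up in VSR156, 2 in CSR11, 2 in IR64 and 7 in Vandana, where 6.85%, 4.5%, 5.48% and 10.6% of all genes were called up on their brightest probe set. LOC4350385, next to LOC4350386, was up by 1.69, 1.98 and 3.51 in VSR156, IR64 and Vandana and moved by −0.17 in CSR11, so that the neighbours differed there.

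Named genes that met the same bounds give a setting for these unnamed ones. Of 61 probe sets raised in all 4 varieties, 36 are those described, 12 have no gene listed and 13 belong to 13 genes with a name, so that LOC-numbered genes made up 73.5% of the 49 with 1 gene, against 83.2% of all single-gene probe sets. The named genes were RAB16C and RAB16D, dehydrins that bind water and membranes in drying cells, 4 small heat shock proteins (HSP16.9A, HSP17.4, HSP18.0 and HSP18.6), which hold unfolded proteins, and HSFA6B, a heat shock transcription factor. The others were PP2C30, a phosphatase of the abscisic acid pathway, LTP-2, a lipid transfer protein, Cht1, a chitinase, MT2A, a metallothionein, SS1, a starch synthase, and PDHE1-A, a subunit of pyruvate dehydrogenase. RAB16D responded by 3.41, 3.44, 3.48 and 6.36, and LOC4346387 was the LOC-numbered gene nearest to it in size. The medians of the 13 were 2.16, 1.55, 2.71 and 3.85 in VSR156, CSR11, IR64 and Vandana. With the drought controls exchanged they were 3.80 for the IR64 arrays and 2.79 for the Vandana arrays, so that the order of the drought varieties turned. CSR11 had the lowest median with either set of drought controls, which does not bear on the salt values. These medians are after quantile normalisation, and those of the 13 with values as deposited are not given here. Since the same bounds on the same arrays chose both lists, nothing on shared control follows.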

How the data were processed

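RNA of 16 samples, leaf per the labels, was hybridised to Affymetrix rice arrays. The authors deposited 1 linear intensity per probe set and array, made with GCOS 1.0 per the submitters' processing notes. The study's methods also name RMA and a filter on absent calls, but the deposited intensity values are linear, differ in level between arrays and carry no calls. Of 57381 probe sets, 187 controls were removed and 57194 were quantile-normalised over all arrays and given as log2(intensity + 16). Quantile normalisation forces arrays of unequal brightness to 1 distribution. The number of arrays limits the precision.

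For each contrast limma 3.58.1 (R 4.3.3) was fitted with 8 group means and empirical Bayes variances, at 8 residual and 2.94 prior degrees of freedom, and p was adjusted by Benjamini-Hochberg over all probe sets within a contrast. A probe set was called at an adjusted p under 0.05 and a difference of at least 1. Calls up or higher and lower are counted separately. The code was tested on simulated data.

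The genes, marker lists and tests were chosen with earlier results of these data known. Named are the 12 probe sets with the largest smallest response, the 3 on either side of the bound, genes whose probe sets differ, and up to 6 genes called in each contrast of unstressed varieties. LOC4328924, LOC4332145, LOC4340083, LOC4330997 and the neighbours were named after their values were seen. Product groups and promoter motifs were not analysed here. In the array annotation 22436 probe sets have exactly 1 gene, 95 have several and 34663 have no entry. Gene order and synonyms came from RefSeq (assembly ASM3414082v1), for which coordinates are not printed as the build of the files is not given in the sources used here.

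After group means were taken off, stressed and control arrays of a variety that share a letter correlated at r between −0.027 and 0.012. No shared array effect was thus visible, which cannot tell whether the samples were handled in pairs. Alternatives were other normalisations and pseudocounts, a filter on dim probe sets, arrays left out, a replicate block, only the arrays of the same experiment, exchanged drought controls and the t-test of the methods. Counts, summaries and figures used Python 3.11.15 with pandas 2.3.3, numpy 2.4.6 and matplotlib 3.10.9.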

Additional observations from a re-analysis of the deposited data

How the results depend on the processing

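The count of 34 genes became 24 with quantile normalisation within each experiment, 4 with arrays centred on their median and 1 with values as deposited. It became 102 with a pseudocount of 1 and 13 with a pseudocount of 64. It ranged from 30 to 44 with 1 array left out, and 18 genes were kept whichever array was left out. Centring left 6, 0, 18 and 25 of the 36 probe sets called up in VSR156, CSR11, IR64 and Vandana. It left 0, 7 and 0 called between unstressed VSR156 and CSR11, unstressed IR64 and Vandana, and salt-stressed VSR156 and CSR11. Values as deposited left 1, 0, 7 and 14 called up in VSR156, CSR11, IR64 and Vandana, and 0, 1 and 0 in those contrasts. A pseudocount of 64 left 22, 19, 28 and 33 called up in VSR156, CSR11, IR64 and Vandana. It left 3 and 9 called between the unstressed pairs, and 1 between the drought-stressed varieties. With only the arrays of the same experiment 1 was called between the drought-stressed varieties, and 0 to 1 with an array left out (1 without CSR11 salt array A or B). The methods' t-test, unadjusted, called 24, 16, 32 and 34 up in VSR156, CSR11, IR64 and Vandana. It called 3 between unstressed VSR156 and CSR11 and 1 between the drought-stressed varieties. After Benjamini-Hochberg it called 0 in every contrast. With the replicate block 36, 35, 35 and 36 were called up and 8, 14, 8 and 0 between varieties, so it moved no count by over 1.5 times. The causes were not tested.

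Of 21 named results under these settings, the smallest response kept its sign and moved by less than the spread in 391 cases, moved by more in 81 and changed sign in 11. Many of the 391 could hardly move. The filter on dim probe sets left every level as it was, and an array left out often lay outside the variety with the smallest response. With centring and with values as deposited, each of the 21 moved by more than the spread or changed sign. The sign changed with centring for LOC4335330 (−0.04), LOC4343540 (−0.82) and LOC4337944 (−0.70). It changed with values as deposited for LOC4335330 (−0.59), LOC4332950 (−0.51), LOC4343540 (−1.37), LOC4337944 (−1.25), LOC4351087 (−0.55), LOC4344680 (−0.05), LOC4341792 (−0.46) and LOC4350386 on its _s_at probe set (−0.11). LOC4337944 was lost with 10 of the 16 arrays left out in turn.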
